A study of Homo sapiens with 6 samples.

Results

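The hypoxia-inducible factor (HIF) genes and targets described here are 10 genes chosen by name out of the 17687 genes measured. They are the oxygen-regulated subunits HIF1A and EPAS1 and the targets VEGFA, ADM, CA9, NDRG1, BNIP3, EGLN3, ANKRD37 and KDM3A. No expression value entered the rule, although earlier results of these data were known when the names were chosen. RNA was sequenced from KHM-5M cells, a human line of anaplastic thyroid cancer, in 3 groups of 2 libraries. The control group received PBS, the SS group sodium selenite, and the SS+NAC group sodium selenite with N-acetylcysteine, a thiol compound used as an antioxidant. The dose and exposure time of the sequenced cells were not given in the labels, and all cells were grown in the same serum-containing medium. No group was cultured at low oxygen as far as the labels state, and no group received NAC alone.

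HIF is a transcription factor made of an oxygen-regulated alpha subunit, encoded by HIF1A or EPAS1, and a stable partner encoded by ARNT. When oxygen is plentiful, prolyl hydroxylases such as EGLN1 and EGLN3 modify the alpha subunit, and the VHL ubiquitin ligase complex marks it for degradation. Its amount is therefore set largely at the protein level, which RNA sequencing does not measure. When the protein is stable, HIF raises the transcription of genes for angiogenesis, glycolysis, pH control and mitochondrial turnover, many of which also respond to other stress pathways.

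The control libraries held 17645545 and 22016655 expected counts. The totals were 23493415 and 23810056 for SS, and 23682740 and 22617180 for SS+NAC. Replicates differed by more than sampling noise, with a chi-square per degree of freedom of 3.10 in control, 7.35 in SS and 12.2 in SS+NAC. Levels across libraries are given as CPM, read counts relative to the TMM-scaled library total, and ± stands for the SD over the 2 libraries of a group. Differences are log2 fold changes from the quasi-likelihood test of edgeR, with p-values adjusted after Benjamini and Hochberg over 14005 tested genes, given with their standard error (SE), and a gene was called at an adjusted p of at most 0.05. In bulk RNA, fewer cells that express a gene and less RNA per cell cannot be told apart. The 3 comparisons share libraries with each other, so they are not independent, and their values are set side by side.

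The cell line label was checked against thyroid and other markers on the TPM scale, which is per length. PAX8, a thyroid transcription factor, ranged from 104 to 134 TPM over the 6 libraries and HHEX from 25.9 to 29.8. TG, which encodes thyroglobulin, stayed between 0.22 and 0.30 TPM, and NKX2-1, SLC5A5, SLC26A4, DIO1 and DIO2 also stayed below 1 TPM in every library. The cells thus carried RNA of some thyroid transcription factors and little of the genes for hormone synthesis. Of 7 endothelial markers, 1 reached 1 TPM in every library, namely TIE1, while PECAM1, VWF and CDH5 stayed below 1 TPM. The summed endothelial level was 42.1 and 44.2 TPM in control, 38.3 and 36.1 in SS, and 43.8 and 38.4 in SS+NAC. Some of the other markers were called in the comparisons that involve the SS group, and none between SS+NAC and control. The epithelial markers summed to 2136 and 2183 TPM in control, 2324 and 2571 in SS, and 2093 and 1762 in SS+NAC, and 3 of 6 were called between SS and control, as were 3 of 5 mesenchymal markers, beside 40.0% of all tested genes. The mesenchymal markers summed to between 7322 and 7902 TPM over the 6 libraries, but this sum is mostly VIM. VIM averaged 6041 TPM in control, 6563 in SS and 5888 in SS+NAC. CDH2, FN1, ZEB1 and SPARC averaged lower in SS than in both other groups, ZEB1 with 20.0, 8.5 and 20.2 TPM. Between SS+NAC and SS, 4 of the 5 were called, beside 42.7% of all tested genes. The fibroblast markers, mainly COL1A1, summed to 223 and 221 TPM in control, 184 and 172 in SS, and 279 and 260 in SS+NAC. Of the 2 tested fibroblast markers, 0 were called between SS and control and 1 between SS+NAC and SS.

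Within the control group, the members spanned a wide range of levels per length. HIF1A was the most abundant at 143 ± 6.73 TPM. BNIP3 followed at 54.0 ± 0.68 TPM, then VEGFA at 43.9 ± 4.54, EPAS1 at 38.0 ± 0.86, NDRG1 at 36.9 ± 1.87 and ADM at 34.5 ± 1.07. In this order, the control libraries of EPAS1 and NDRG1 overlapped, so these neighbours did not differ beyond their spread. KDM3A had 10.9 ± 0.19 TPM and ANKRD37 1.08 ± 0.064 TPM. CA9 and EGLN3 were lowest, at 0.38 ± 0.028 and 0.13 ± 0.042 TPM.

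CA9 and EGLN3 did not pass the filter on low counts, so 8 of the 10 members were tested. CA9 encodes a carbonic anhydrase of the cell surface that acidifies the surroundings of hypoxic cells, and it had between 4 and 8 counts in each library. EGLN3, the hydroxylase gene, had between 2 and 6 counts. The libraries of the 3 groups overlapped for both genes, and differences at this level were not detectable at this depth. RNA of these HIF targets was thus close to the limit of detection in all groups.

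In RefSeq, 8 of the 10 members had promoter sequences on GRCh38.p14, in 10 windows from 250 bases before to 50 bases after a transcript start. VEGFA and NDRG1 had no window. The core letters of the hypoxia response element, ACGTG and GCGTG, were searched on both strands. ACGTG can also be part of CACGTG, the E-box motif, which reads the same on both strands and is then matched on each. ACGTG was found in 21.4% of the 35116 windows of all genes, GCGTG in 36.5% and either of them in 48.4%. Among the members, 7 of the 8 genes had either motif in a window, and EGLN3 had none. This counts genes, whereas the background counts windows, so the shares are not in the same unit. HIF1A and KDM3A each had a second window, and that of HIF1A held no match. ACGTG was found in 3 of them, namely ANKRD37, BNIP3 and CA9. The windows below show ADM, the member with the largest called change between SS+NAC and control, BNIP3, the only member called lower in SS+NAC than in SS, and CA9, which was barely detected. They run 5′ to 3′ on the strand of the gene, and capitals mark the matches on either strand.
ADM, chr11:10304823-10305122, plus strand: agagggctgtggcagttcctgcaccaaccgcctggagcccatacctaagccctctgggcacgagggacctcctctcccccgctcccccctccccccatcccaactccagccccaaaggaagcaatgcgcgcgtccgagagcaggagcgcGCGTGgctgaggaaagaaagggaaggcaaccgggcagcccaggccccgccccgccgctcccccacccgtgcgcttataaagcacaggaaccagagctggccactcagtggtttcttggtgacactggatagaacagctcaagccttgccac
BNIP3, chr10:131981874-131982173, minus strand: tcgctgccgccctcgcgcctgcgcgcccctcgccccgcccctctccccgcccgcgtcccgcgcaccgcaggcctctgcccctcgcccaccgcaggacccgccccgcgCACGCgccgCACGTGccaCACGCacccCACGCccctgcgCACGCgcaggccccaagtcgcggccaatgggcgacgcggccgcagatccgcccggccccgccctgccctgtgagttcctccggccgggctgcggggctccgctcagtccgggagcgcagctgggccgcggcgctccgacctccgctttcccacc
CA9, chr9:35673678-35673977, plus strand: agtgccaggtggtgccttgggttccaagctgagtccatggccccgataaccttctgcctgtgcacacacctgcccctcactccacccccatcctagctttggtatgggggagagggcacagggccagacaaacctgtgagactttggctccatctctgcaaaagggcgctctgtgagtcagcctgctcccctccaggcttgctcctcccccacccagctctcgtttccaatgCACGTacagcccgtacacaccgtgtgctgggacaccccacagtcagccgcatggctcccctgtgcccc
The ADM window held 1 match, 101 bases before the start. The BNIP3 window held 6 matches, of which 2 are the same CACGTG read on both strands. The CA9 window held 1 match, 18 bases before the start. ANKRD37 had 3 matches, 2 of them in 1 CACGTG, and EPAS1 had 1. These are matches of letters, and binding was not measured.

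**Figure D1:**
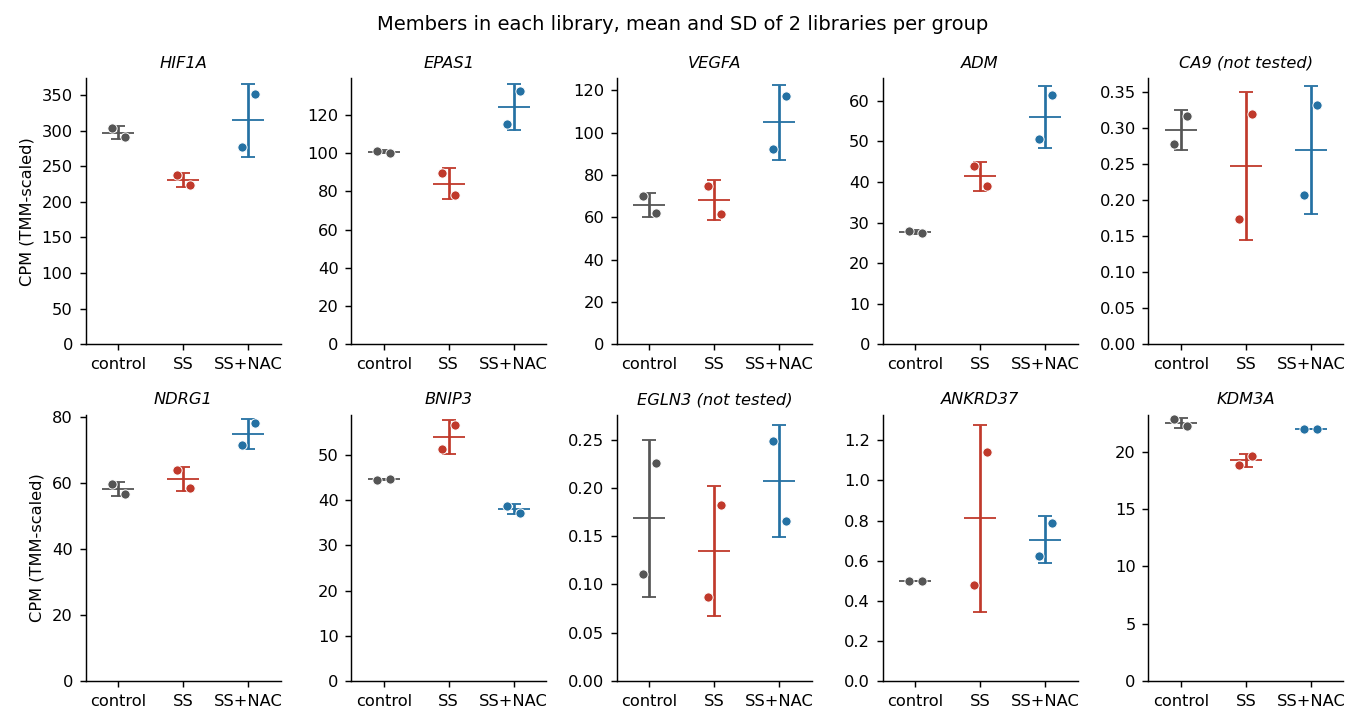
Expression of the 10 members in each library, as TMM-scaled CPM (vertical axis, from 0) for the control, SS and SS+NAC groups. Points are libraries, and bars show their mean with its SD; ADM was lowest in control, at 28.0 and 27.4 CPM, and highest in SS+NAC, at 50.6 and 61.5 CPM.

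The first comparison asked what selenite alone changed. Between SS and control, 4 of the 8 tested members were called, ADM and BNIP3 higher and HIF1A and EPAS1 lower in SS. Of all tested genes, 40.0% were called in this comparison, 18.6% higher and 21.4% lower, so a share of 4 in 8 was near the background. The median log2 fold change of the tested members was 0.06, beside 0.00 over all tested genes, and -0.05 without SS replicate 1. It was -0.10 without a filter on low counts and -0.09 in DESeq2. These last values also include the barely detected CA9 and EGLN3, so they are not medians of the same 8 genes.

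ADM encodes adrenomedullin, a secreted peptide that widens blood vessels, and lies on chromosome 11 of GRCh38 from 10304680 to 10307397. ADM measured 28.0 and 27.4 CPM in control, against 43.9 and 38.9 with SS. The groups stood apart, and the log2 fold change was 0.58 (SE 0.11, edgeR adjusted p = 0.0020). BNIP3, on chromosome 10 from 131966455 to 131982013, encodes a protein of the outer mitochondrial membrane that takes part in mitophagy. Its level was 44.5 and 44.7 CPM in control against 51.4 and 56.7 with SS, again without overlap. The log2 fold change was 0.28 (SE 0.079, edgeR adjusted p = 0.018).

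HIF1A lies on chromosome 14 from 61695513 to 61748259. It had 304 and 291 CPM in control and 238 and 224 CPM in SS. The groups did not overlap, and the log2 fold change was -0.36 (SE 0.10, edgeR adjusted p = 0.018). EPAS1, which encodes HIF-2 alpha and lies on chromosome 2 from 46293667 to 46386703, had 101 and 100 CPM in control against 89.7 and 78.2 with SS. This gave a log2 fold change of -0.26 (SE 0.092, edgeR adjusted p = 0.043). RNA of both alpha subunits was thus lower in SS before transcript length was taken into account.

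VEGFA, which encodes the main angiogenic growth factor and lies on chromosome 6 from 43770184 to 43786487, had 69.9 and 61.9 CPM in control and 74.8 and 61.4 CPM in SS. These groups overlapped, and the 95% interval of the log2 difference ran from -0.23 to 0.33. NDRG1, a stress-responsive gene linked to differentiation, overlapped as well, with an interval from -0.11 to 0.25. KDM3A encodes a histone H3 demethylase. It had 22.8 and 22.2 CPM in control and 18.8 and 19.6 CPM in SS, and its log2 fold change of -0.23 (SE 0.087) had an edgeR adjusted p of 0.059. ANKRD37, which encodes an ankyrin repeat protein, had 0.50 CPM in each control library and 0.48 and 1.14 CPM in SS. Its difference rested on SS replicate 2, which had 25.5 expected counts.

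Fold changes between SS and control followed transcript length across all genes. The Spearman correlation across the 14005 tested genes was -0.68, with genes as points, which are not independent replicates. It was 0.64 between SS+NAC and SS and -0.04 between SS+NAC and control. ADM and BNIP3 have short transcripts, with effective lengths of 1584 and 1628 bases, and HIF1A and EPAS1 long ones, with 4099 and 5230 bases. The median of the tested genes was 3047 bases, close to VEGFA at 2937 and NDRG1 at 3107. The trend at these lengths alone came to 0.28 for ADM and 0.27 for BNIP3 on the log2 scale, and to -0.19 for HIF1A and -0.31 for EPAS1.

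**Figure D2:**
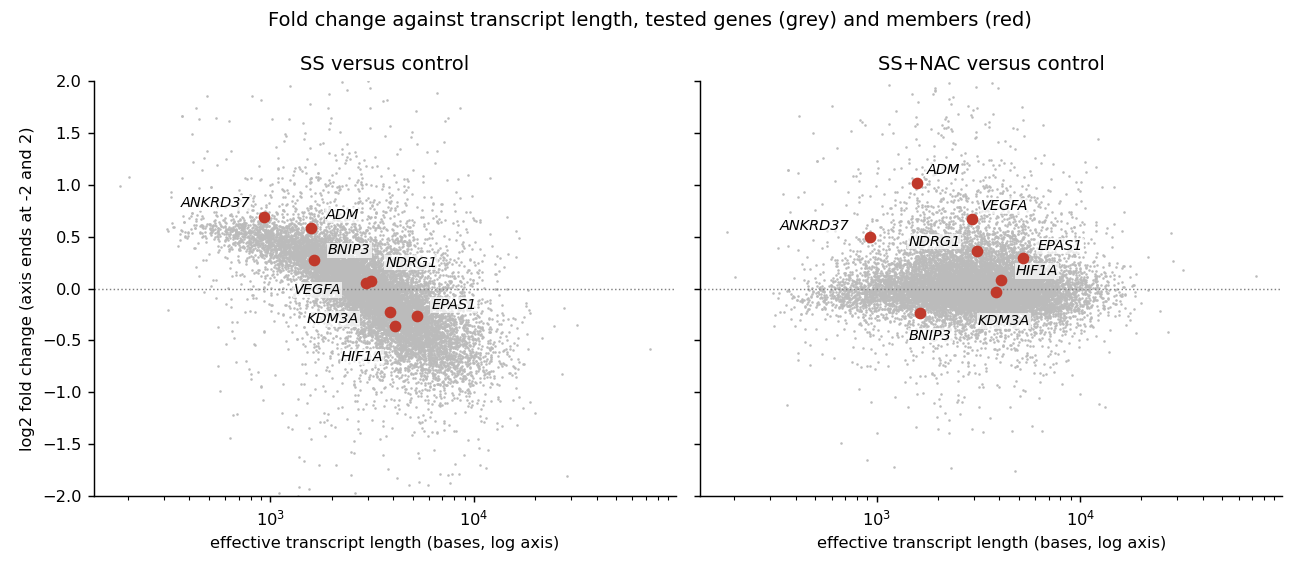
Log2 fold change (vertical axis) against effective transcript length in bases (log axis) for SS versus control and SS+NAC versus control. Grey points are the tested genes, of which 51 and 35 lie outside the axis, and red points the 8 tested members; in SS versus control the short ADM and BNIP3 lie above 0 and the long HIF1A and EPAS1 below, while in SS+NAC versus control ADM lies at 1.02 without a trend over length.

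With an offset for length in the fit, none of the 8 members was called between SS and control, and 1 had an unadjusted p of at most 0.05, while 9.23% of all tested genes were called. Without the offset, DESeq2 called 4 members. The log2 fold change became 0.30 for ADM (edgeR adjusted p = 0.14), 0.01 for BNIP3, -0.18 for HIF1A (edgeR adjusted p = 0.28) and 0.04 for EPAS1, which changed sign. Single libraries mattered too. Without control replicate 1, control replicate 2 or SS replicate 2, the calls of HIF1A, EPAS1 and BNIP3 were lost, with edgeR adjusted p from 0.068 to 0.28, and ADM remained. The log2 fold changes were then from -0.37 to -0.32 for HIF1A, from -0.26 to -0.17 for EPAS1 and from 0.20 to 0.31 for BNIP3. The count of all called genes was then 3118, 3628 and 3163 in place of 5608. The EPAS1 call was also lost without a filter on low counts (edgeR adjusted p = 0.051) and with at least 10 counts in every library (edgeR adjusted p = 0.060). It was lost as well with a block for replicate number (edgeR adjusted p = 0.075). Bonferroni adjustment left none of the 8 members, of which 5 had an unadjusted p of at most 0.05.

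The other genes of the pathway comprised 70 genes in 6 lists, of which 69 were tested. Between SS and control, 22 were called higher and 11 lower, 33 of 69 beside the background of 40.0%. ARNT, the partner of both alpha subunits, had 50.1 and 49.1 CPM in control against 39.9 and 38.2 with SS, or -0.34 as a log2 fold change (SE 0.079, edgeR adjusted p = 0.0064), and was not called with the length offset. ARNT2 and HIF3A were not called. Of 11 genes for oxygen sensing and degradation, 5 were called higher and 3 lower, 72.7% beside the same background. The higher ones included ELOB at 0.63 and RBX1 at 0.59, subunits of the VHL ligase complex, and CITED2 at 0.39, a competitor of HIF for its coactivator. SIAH1, a ubiquitin ligase that acts on prolyl hydroxylases, had a log2 fold change of 0.39 (SE 0.082) and 0.44 with the length offset (edgeR adjusted p = 0.0087). It was the only one of these 11 genes called with the offset, beside 9.23% of all tested genes, so that ELOB, RBX1 and CITED2 lost their calls.

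Of 21 genes for glucose uptake and glycolysis, 13 were called higher and 2 lower, 71.4% beside 40.0% of all tested genes, with a median log2 fold change of 0.30. ALDOC rose by 0.67, ALDOA by 0.51, TPI1 by 0.50 and GAPDH by 0.49 on the log2 scale. With the length offset, 3 of the 21 were called, all higher in SS, 14.3% beside 9.23% of all tested genes. One was the glucose transporter gene SLC2A3, at 0.63 with the offset (edgeR adjusted p = 0.0068). The others, picked after their values were seen, were SLC2A1 at 0.45 and GPI at 0.55. Of 14 tested targets of angiogenesis, secretion and pH, 1 was called higher and 2 lower, beside 40.0% of all tested genes. PDGFB was higher at 0.47, and PLOD2 at -0.49 and VLDLR at -0.47 were lower. With the length offset, which called 9.23% of all tested genes, PDGFB kept its call and PLOD2 and VLDLR lost theirs. STC2 was then called higher at 0.51 (edgeR adjusted p = 0.0016). Of 4 chromatin enzymes, JMJD6 was called higher at 0.25 and KDM5C lower at -0.33, beside the same 40.0%. Neither was called with the offset.

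Of 16 tested targets of mitochondrial turnover, growth control and stress, 2 were called higher and 2 lower between SS and control, 25.0% beside 40.0% of all tested genes. DDIT4, which encodes REDD1, an inhibitor of mTOR complex signaling that is induced by hypoxia and by other stresses, changed most. It had 14.1 and 14.5 CPM in control, 35.6 and 24.3 CPM in SS, and 65.2 and 83.7 CPM in SS+NAC. The 3 groups did not overlap. The log2 fold change between SS and control was 1.07 (SE 0.18, edgeR adjusted p = 0.0013), and 0.83 with the length offset (edgeR adjusted p = 0.029). FAM162A was also higher, at 0.45, and had -0.03 with the offset. The lower genes were ZNF395, with 60.7 and 60.2 CPM in control against 49.8 and 49.9 with SS, and AK4, with 109 and 107 against 91.0 and 90.4 CPM. Their log2 fold changes were -0.28 and -0.25, and neither was called with the offset, where AK4 changed sign to 0.18.

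**Figure D3:**
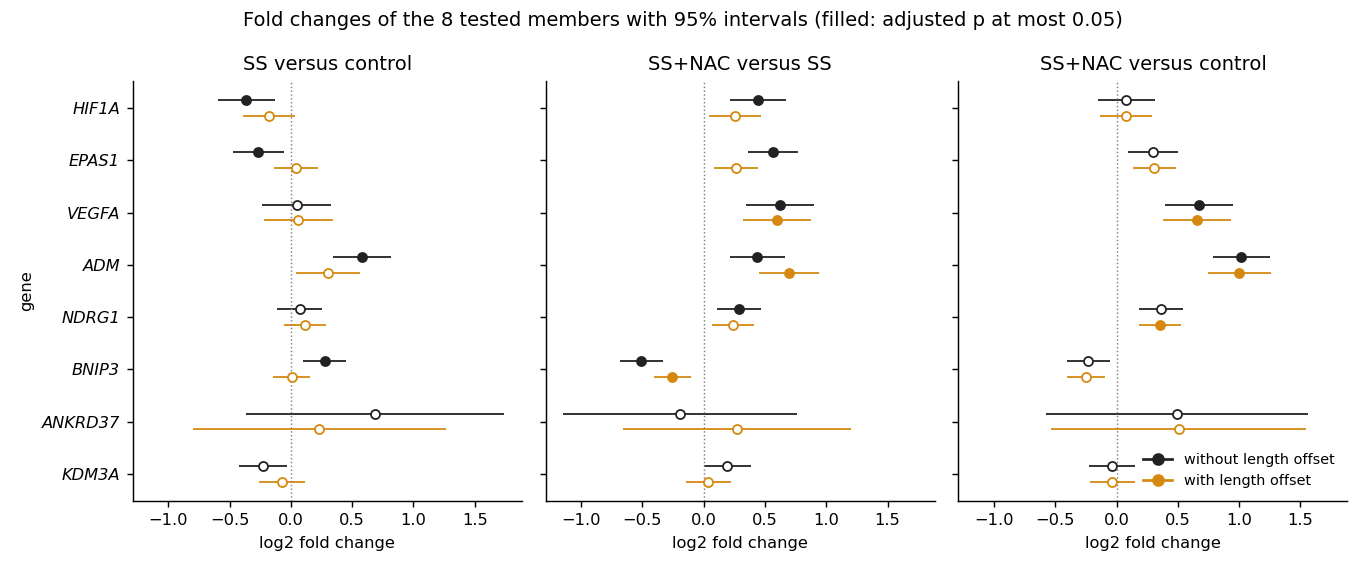
Log2 fold changes of the 8 tested members (horizontal axis) in the 3 comparisons, with 95% intervals, without and with the offset for transcript length. Filled points had an adjusted p of at most 0.05; between SS and control no point is filled with the offset, whereas ADM and VEGFA are filled in both fits in SS+NAC versus SS and in SS+NAC versus control.

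The second comparison asked how the addition of NAC changed the SS profile. Between SS+NAC and SS, 6 of the 8 tested members were called, 5 higher and 1 lower in SS+NAC, beside 42.7% of all tested genes, 23.1% higher and 19.6% lower. The median log2 fold change of the members was 0.36, beside 0.03 over all tested genes. VEGFA had 92.5 and 117 CPM in SS+NAC against 74.8 and 61.4 in SS, a log2 fold change of 0.62 (SE 0.12, edgeR adjusted p = 0.0029). ADM had 50.6 and 61.5 CPM against 43.9 and 38.9, a log2 fold change of 0.44 (SE 0.10, edgeR adjusted p = 0.0061). The 2 secreted factors were thus higher in both SS+NAC libraries than in either SS library.

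EPAS1 had 116 and 133 CPM in SS+NAC, a log2 fold change over SS of 0.56 (SE 0.092, edgeR adjusted p = 0.0010). HIF1A had 278 and 351 CPM, a log2 fold change of 0.44 (SE 0.10, edgeR adjusted p = 0.0065). NDRG1 had 71.5 and 78.0 CPM against 63.8 and 58.5 in SS, a log2 fold change of 0.29 (SE 0.081, edgeR adjusted p = 0.015). BNIP3 moved the other way, with 38.8 and 37.3 CPM in SS+NAC and a log2 fold change of -0.51 (SE 0.079, edgeR adjusted p = 0.00082). KDM3A, at 0.19, and ANKRD37, at -0.19, were not called.

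With the length offset, 3 members were called between SS+NAC and SS, beside 14.4% of all tested genes. They were ADM at 0.70 (edgeR adjusted p = 0.0041), VEGFA at 0.60 (edgeR adjusted p = 0.013) and BNIP3 at -0.26 (edgeR adjusted p = 0.035). EPAS1 at 0.27 (edgeR adjusted p = 0.052), HIF1A at 0.26 (edgeR adjusted p = 0.099) and NDRG1 at 0.24 (edgeR adjusted p = 0.064) were not. With a block for replicate number added to the offset, BNIP3 was not called either, at -0.26 (edgeR adjusted p = 0.088). Without SS replicate 2, the calls of HIF1A, ADM and NDRG1 in the fit without the offset were lost, with log2 fold changes of 0.40, 0.35 and 0.23 and edgeR adjusted p of 0.059, 0.068 and 0.13. The NDRG1 call was also lost without SS+NAC replicate 2, with a log2 fold change of 0.23. HIF1A then had a log2 fold change of 0.27 in place of 0.44. Bonferroni adjustment left none of the members here, of which 7 had an unadjusted p of at most 0.05, and it left ADM between SS+NAC and control.

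Of the 69 other pathway genes, 11 passed the test as higher and 20 as lower with SS+NAC than with SS, 44.9% of them and thus near the background of 42.7%, with a median log2 fold change of -0.09. The glycolysis list had 1 gene higher and 11 lower of 21, or 57.1%, and GAPDH had a log2 fold change of -0.51 and TPI1 of -0.57. With the length offset, GAPDH and TPI1 were not called, and 7 of the 21 were, all lower, beside 14.4% of all tested genes. ELOB, at -0.82, RBX1, at -0.77, and CITED2, at -0.73, were lower. VLDLR, a lipoprotein receptor gene, was higher by 1.31 (SE 0.13), DDIT4 by 1.31 (SE 0.16) and STC2, which encodes the secreted glycoprotein stanniocalcin 2, by 0.77 (SE 0.075). All 6 of these named genes outside glycolysis were also called with the length offset, where the log2 fold changes were -0.30 for ELOB and RBX1, -0.55 for CITED2, 1.08 for VLDLR, 1.53 for DDIT4 and 0.46 for STC2.

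The third comparison asked what distinguished cells given SS with NAC from control cells. Between SS+NAC and control, 2 of the 8 tested members were called, both higher in SS+NAC, beside 2.01% of all tested genes, 1.36% higher and 0.657% lower. ADM had 50.6 and 61.5 CPM against 28.0 and 27.4 in control, a fold change of 2.03 and a log2 fold change of 1.02 (SE 0.11, edgeR adjusted p = 0.00062). VEGFA had 92.5 and 117 CPM against 69.9 and 61.9, a fold change of 1.59 and a log2 fold change of 0.67 (SE 0.13, edgeR adjusted p = 0.023). For each gene, both SS+NAC libraries lay above both control libraries. The median log2 fold change of the tested members was 0.33, beside 0.00 over all tested genes.

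NDRG1 had 71.5 and 78.0 CPM in SS+NAC against 59.7 and 56.6 in control, without overlap, a log2 fold change of 0.36 (SE 0.081, edgeR adjusted p = 0.052). EPAS1 did not overlap either, with a log2 fold change of 0.30 (SE 0.091, edgeR adjusted p = 0.15). BNIP3 was at 38.8 and 37.3 CPM beside 44.5 and 44.7 in control, a log2 difference of -0.23 (edgeR adjusted p = 0.19). HIF1A libraries overlapped between the groups, and the 95% interval of its log2 difference ran from -0.15 to 0.31. KDM3A had an interval from -0.22 to 0.15.

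With the length offset, ADM (edgeR adjusted p = 0.0017) and VEGFA, at 0.66, were called, as was NDRG1 at 0.35 (edgeR adjusted p = 0.0499), 3 of 8 members beside 2.01% of all tested genes. Without control replicate 1 or 2, 98 and 99 of all tested genes were called in place of 282, and without SS+NAC replicate 1 there were 1088, with 4 members. The call of VEGFA was lost without control replicate 1 (log2 fold change 0.76, edgeR adjusted p = 0.058) or control replicate 2 (0.59, edgeR adjusted p = 0.15). ADM was called in each of the 15 alternative settings, with log2 fold changes from 0.87 to 1.15. VEGFA was called in 12 of 15, with values from 0.49 to 0.83, and its call was also lost with Bonferroni adjustment.

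Of the other pathway genes, 4 of 69 were called between SS+NAC and control, 3 higher and 1 lower, 5.80% beside 2.01% of all tested genes. With the length offset, CITED2 was also called, lower at -0.36 (edgeR adjusted p = 0.034), which made 3 higher and 2 lower. DDIT4 had a log2 fold change of 2.38 (SE 0.17, edgeR adjusted p = 4.2e-05). STC2 had 284 and 276 CPM in control, 329 and 308 in SS, and 535 and 554 in SS+NAC, a log2 fold change over control of 0.96 (SE 0.076, edgeR adjusted p = 7.5e-05). VLDLR had 6.78 and 6.42 CPM in control, 5.01 and 4.52 in SS, and a mean of 11.8 ± 0.26 in SS+NAC, a log2 fold change over control of 0.84 (SE 0.13, edgeR adjusted p = 0.0076). ZNF395, a transcriptional regulator gene, was lower at -0.39 (SE 0.078, edgeR adjusted p = 0.034). This gene was not called with a block for replicate number in the fit. None of the 21 glycolysis genes was called by edgeR or DESeq2, and 1 had an unadjusted p of at most 0.05 in edgeR. The called genes outside the members were thus a secreted factor, a receptor, an mTOR inhibitor and a regulator. DDIT4, STC2 and, among the members, VEGFA are also known as targets of the stress factor ATF4, whose part here was not tested.

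**Figure D4:**
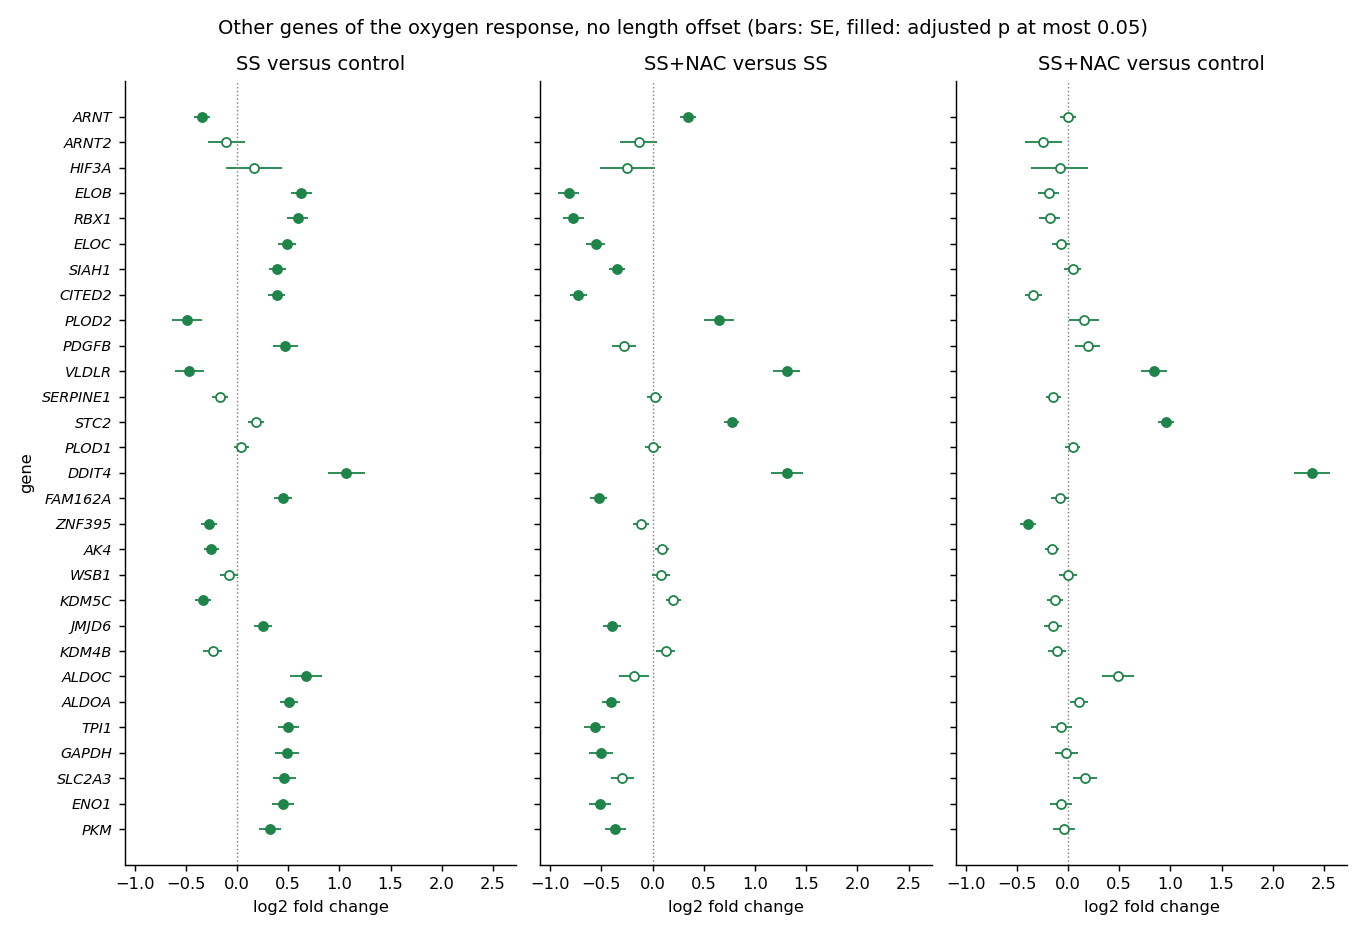
Log2 fold changes (horizontal axis) of the named pathway genes outside the members in the 3 comparisons, without the length offset. Bars are SE and filled points had an adjusted p of at most 0.05; DDIT4 lies furthest right in SS+NAC versus control, at 2.38, while the glycolysis genes GAPDH, TPI1 and ENO1 lie right of 0 in SS and left of 0 in SS+NAC versus SS.

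Scale affected how SS levels read. VEGFA averaged 68.1 CPM in SS against 65.9 in control, yet 38.4 TPM against 43.9, and BNIP3 averaged 54.0 CPM against 44.6, yet 53.8 TPM against 54.0. The TPM values divide by length before they are scaled to a fixed sum, so that a trend over length in a library enters the sum.

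Across the 6 libraries, the genes whose log2 CPM was most like HIF1A among 9526 genes averaging 10 CPM or more were STXBP3, SLC30A5 and SCML1, with Pearson r of 0.999, 0.997 and 0.996. For EPAS1 they were DYRK1A, CCDC80 and MRC2, and for VEGFA they were LIF, C3 and COL6A1, each with r of at least 0.99. Such values were not rare over 3 groups of 2 libraries, since 389, 186 and 59 genes reached an r of 0.95 with HIF1A, EPAS1 and VEGFA.

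Some counts carried uncertainty from shared sequence. The expected counts of BNIP3 and ANKRD37 were not whole in any of the 6 libraries, since RSEM divided reads between matching genes, whereas those of the other 8 members were whole. GENCODE release 29 lists 39 BNIP3 pseudogenes by name. ANKRD37 shares 909 exonic bases with UFSP2 on the opposite strand, and CA9 shares 643 with ARHGEF39. HIF1A shares 117 with the antisense gene HIF1A-AS1 and 148 with AL137129.1 on its own strand, and VEGFA shares 188 with the antisense gene AL136131.3. Strand-specific counting was not stated, so that reads from such partners cannot be told apart.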

How the data were processed

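The members and gene lists were chosen with earlier results of these data known. The authors captured polyadenylated RNA, primed cDNA randomly, sequenced single-end reads on a BGIseq500, removed poor reads by SOAPnuke, aligned the remainder by HISAT2 and used RSEM to estimate levels. The submitters' processing notes name HISAT2 2.0.4, Bowtie2 2.2.5 and RSEM 1.2.12; the annotation release was not given in the sources used here. The deposited table holds the expected counts of 17687 genes from RSEM, of which 44.8% were not whole. The FPKM values were computed by the authors with RSEM, as were the TPM values in the deposited table. The authors' comparisons of groups (9 columns of fold changes and p-values) and 9 columns of group means were not used.

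Expected counts were rounded to the nearest whole number, with ties rounded up. filterByExpr of edgeR 4.0.16 (R 4.3.3) kept 14005 genes, which were scaled by TMM (factors 0.920 to 1.06) and fitted together over 6 libraries with the quasi-likelihood test. The common biological coefficient of variation was 6.74%. Benjamini-Hochberg adjustment covered all tested genes. The methods of the study name 2 biological replicates per group. Effective lengths were derived from counts and FPKM. The length offset was a lowess fit (span 0.3) of each library's deviations in log2 CPM (prior count 2) on log length, and the fit was tested on simulated data. Alternatives were DESeq2 1.42.0 (size factors, Wald test), other filters, the compared libraries alone, a replicate block, the length offset, both together, Bonferroni adjustment and each library left out.

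Besides the 10 members, the text names from each list up to 5 called genes with the largest changes between SS and control that averaged 1 CPM or more in any group, and the 3 genes with the highest mean TPM. Gene positions came from GENCODE release 29 on GRCh38, the build of the chromosome accessions in the table, and promoters from RefSeq. Summaries used pandas 2.3.3 and plots matplotlib 3.10.9, under Python 3.11.15.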

Additional observations from a re-analysis of the deposited data

How the results depend on the processing

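Of 357 values for the 8 tested members and the 3 comparisons under the alternatives, 299 kept their direction and their side of the threshold. Another 42 lost the call without a change of sign, 7 gained it and 9 changed sign. Among those that changed sign, EPAS1 in SS versus control also lost its call with the length offset, alone and with the replicate block.

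The length offset gave 1292 and 2019 called genes in SS versus control and SS+NAC versus SS, with 0 and 3 members and 7 and 18 other pathway genes. EPAS1 in SS versus control changed sign to 0.043, and ANKRD37 in SS+NAC versus SS to 0.27. Bonferroni adjustment left 219, 191 and 40 called genes in SS versus control, SS+NAC versus SS and SS+NAC versus control, with 0, 0 and 1 members (5, 7 and 5 had an unadjusted p of at most 0.05 in edgeR) and 0, 3 and 2 other pathway genes.

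Deviations of same-numbered libraries correlated at 0.11 between control and SS, -0.10 between control and SS+NAC and -0.17 between SS and SS+NAC. The labels do not say whether same-numbered libraries were paired, and these correlations, from 2 libraries per group, cannot decide it. The replicate block gave 4858, 5135 and 211 called genes, with 3, 6 and 2 members and 27, 27 and 3 other pathway genes. EPAS1 in SS versus control (-0.26, edgeR adjusted p = 0.075) and ZNF395 in SS+NAC versus control (-0.39, edgeR adjusted p = 0.076) were then not called. Of 127 hallmark hypoxia genes outside members and lists, 12 were called higher and 1 lower with the block in SS+NAC versus control. This was 10.2% beside 1.51% of all tested genes, and the fit without the block called 14 and 5. Together with the length offset, the block gave 849 and 1349 called genes in the comparisons with SS, with 0 and 2 members and 7 and 12 other pathway genes. BNIP3 in SS+NAC versus SS (-0.26, edgeR adjusted p = 0.088) was not among them, while EPAS1 became 0.043 in SS versus control and ANKRD37 0.30 in SS+NAC versus SS. With the SS+NAC numbers crossed, an alternative chosen after seeing the data, the block gave 7152, 7287 and 1477 called genes, with 5 members and 11 other pathway genes in SS+NAC versus control.

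Leaving out each library in turn gave 3118 to 6580 called genes in SS versus control, with 1 to 5 members and 9 to 38 other pathway genes. It gave 3234 to 6342 called genes in SS+NAC versus SS, with 3 to 6 members and 19 to 38 other pathway genes, and 98 to 1088 called genes in SS+NAC versus control, with 1 to 4 members and 2 to 9 other pathway genes. A lone library was then assumed to vary like the other groups. Without control replicate 2 and SS replicate 1, VEGFA in SS versus control changed sign to -0.01 and -0.10 (range to 0.18). Without SS replicate 2, ANKRD37 changed sign to -0.059 in SS versus control (range to 1.18) and to 0.55 in SS+NAC versus SS (range from -0.69). Without SS+NAC replicate 2, HIF1A became -0.10 in SS+NAC versus control (range to 0.24). The cause of these changes was not tested. The length offset takes out any difference between libraries that follows transcript length, whatever its source, so a call lost with it does not show the source. Depth limits ANKRD37, CA9 and EGLN3, with at most 25.5 expected counts in a library.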

Other observations

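The deposited table also assigns genes to the hallmark hypoxia set, a broad published list of genes that respond to low oxygen. It was looked at after the values of the members were known and is given as a description, with no test. Outside the members and the 6 lists, 127 of its genes were tested. Between SS+NAC and control, 14 were called higher and 5 lower, 15.0% of them beside 2.01% of all tested genes. Fewer were called in either direction with the replicate block, as given above. Between SS and control, 38 were called higher and 25 lower, 49.6% beside 40.0% of all tested genes, and with the length offset 14 and 5, 15.0% beside 9.23%.

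Of the called genes of SS+NAC versus control, 5 were picked for description after their values were seen, and they do not stand for the others. FOS, an immediate early gene, averaged 4.43 CPM in control, 9.79 in SS and 13.7 in SS+NAC, with a log2 fold change over control of 1.64 (SE 0.17, edgeR adjusted p = 0.00068). ATF3, a stress-induced transcription factor, averaged 6.95, 17.6 and 21.2 CPM, with a log2 fold change of 1.61 (SE 0.16, edgeR adjusted p = 0.00046). DDIT3, which encodes CHOP, averaged 10.1, 20.3 and 21.9 CPM, with a log2 fold change of 1.11 (SE 0.12). HMOX1, the heme oxygenase gene, averaged 16.6, 22.3 and 29.9 CPM, with a log2 fold change of 0.85 (SE 0.092). STC1, a paralog of STC2, was lower in SS+NAC, with 8.80 CPM in control, 8.81 in SS and 4.60 in SS+NAC and a log2 fold change of -0.93 (SE 0.15, edgeR adjusted p = 0.011). These genes kept their calls with the length offset.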
